A study of Mus musculus with 12 samples.

Results

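A set of 10 genes that control the step from the first growth phase (G1) of the cell cycle into DNA synthesis (S phase) were followed in mouse colon. They were chosen by name: the D-type cyclins Ccnd1, Ccnd2 and Ccnd3, the E-type cyclins Ccne1 and Ccne2, the kinases Cdk2, Cdk4 and Cdk6, and the inhibitors Cdkn1b and Cdkn1c. They are 10 of the 54532 genes in the count table, and all 10 passed the filter on low counts that left 16904 genes for testing.

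Bulk RNA-Seq was made on colon tissue of male wild-type C57BL/6J mice, 5 weeks old, in 4 groups of 3 libraries. The control group received no DSS. The model group received dextran sulfate sodium (DSS), a polymer that damages the colon epithelium and causes acute colitis. The Rhy group received DSS and rhynchophylline (Rhy), an alkaloid of Uncaria rhynchophylla, and the DXM group received DSS and dexamethasone (DXM), a glucocorticoid, at 4 mg/kg. The study used Rhy at 2, 4 and 8 mg/kg, and the labels of the sequenced Rhy mice do not say which dose they had. DSS colitis is a chemical injury model, and all 3 treated groups carried the injury, so neither compound was sequenced without DSS.

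In G1, growth signals raise the D-type cyclins, which bind and activate CDK4 and CDK6. These kinases begin to phosphorylate the retinoblastoma protein, which frees E2F transcription factors. E2F drives transcription of the E-type cyclins, which activate CDK2 and complete the step. CDKN1B (p27) and CDKN1C (p57) bind cyclin-CDK complexes and restrain them. In the colon this machinery runs in dividing cells of the crypt, and the epithelium is rebuilt from these cells after injury.

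The libraries held 14346478 to 17749716 counted reads. Mitochondrial genes took 6.33% to 25.7% of the reads, and the share was above 20% in control 1, Rhy 1 and DXM 1. The distal colon marker Hoxb13 was 0.165 CPM in control 3, 1.49 CPM in model 3 and 0 in Rhy 1, against 72.0 to 316 CPM in the other 9 libraries. CPM, the counts of a gene relative to the total of its library, were scaled by TMM here and throughout. The B cell markers (7 genes) summed to 10.7 CPM in control 3 and 1.11 CPM in Rhy 1, against 109 to 183 CPM elsewhere. The 10 epithelial markers summed to 13572 to 22798 CPM in every library. Model 1 and model 2 were far closer to each other than any other pair, with a pairwise dispersion of 0.00201 against 0.0604 to 0.351. Results that turn on the Hoxb13-poor libraries or on the libraries rich in mitochondrial reads are given with and without them. In bulk tissue, fewer cells of a type and less RNA per cell cannot be told apart.

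Compared per length in FPKM, the members spanned a wide range. Cdk4 was the most abundant member by median, at 30.4 FPKM over the 12 libraries (12.3 to 38.3). Its partner kinase Cdk6 had a median of 1.61 FPKM (0.827 to 3.30). Cdk2 lay between them, with a median of 3.69 FPKM (1.57 to 5.75). The FPKM ratio of Cdk4 to Cdk6 was lowest in control 3, at 7.59, and highest in Rhy 2, at 23.3. Among the D-type cyclins, the medians were 11.7 FPKM for Ccnd1, 10.6 FPKM for Ccnd2 and 7.60 FPKM for Ccnd3. The E-type cyclins were lower, with medians of 3.68 FPKM for Ccne1 and 1.45 FPKM for Ccne2. The inhibitor Cdkn1b had a median of 12.9 FPKM and Cdkn1c one of 5.81 FPKM.

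The members also differed in how far they moved between libraries. Ccnd3 was the steadiest, with a highest library 1.63 times its lowest in CPM. Cdkn1b followed at 2.46 times. Ccnd2 moved the most, at 10.4 times, and Cdkn1c came next, at 8.44 times.

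**Figure D1:**
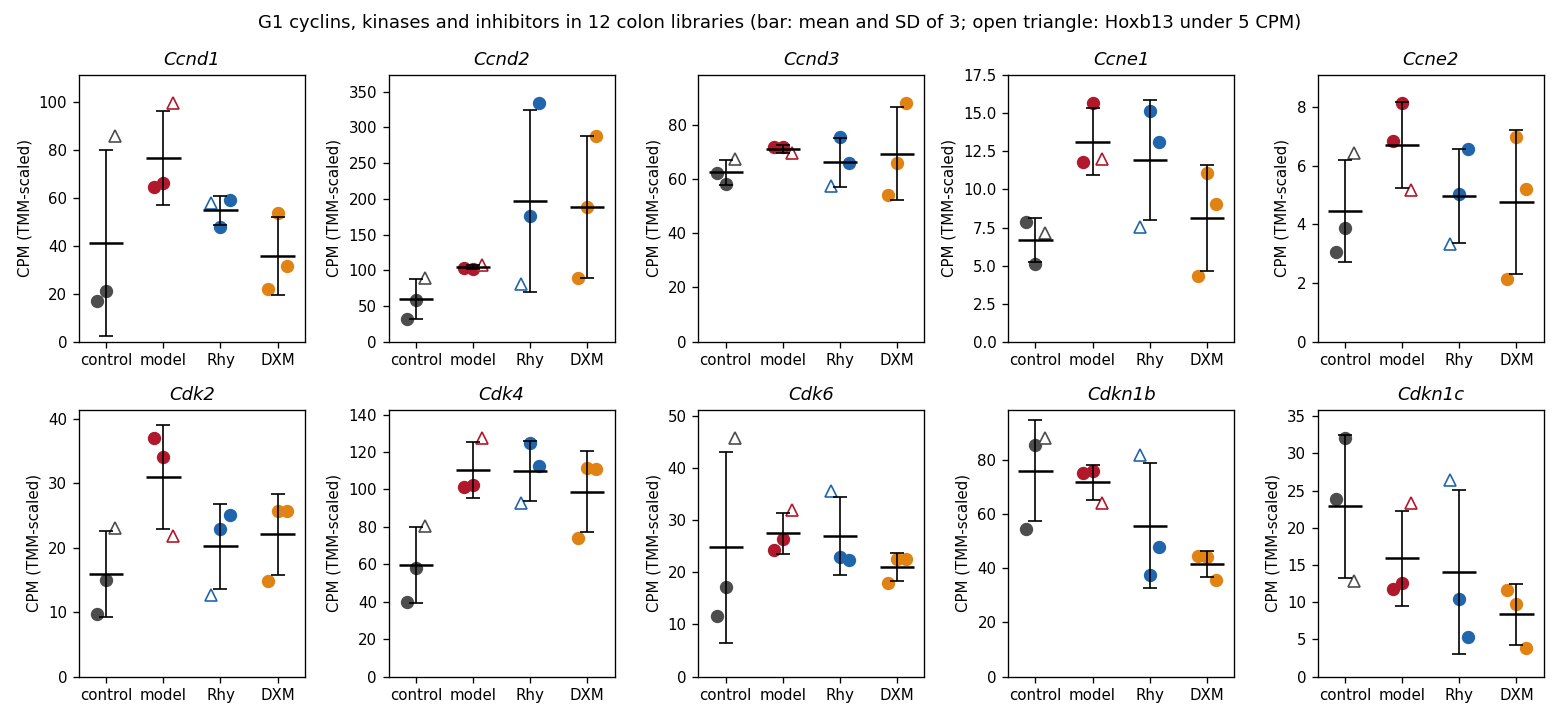
Level of each of the 10 genes in CPM (vertical axis, from 0) in the 4 groups. Each point is 1 library, bars give the mean and SD of 3 libraries, and open triangles mark the 3 libraries with Hoxb13 under 5 CPM; Ccnd1 in control 3 reached 86.0 CPM while the other control libraries were at 16.8 and 21.1 CPM.

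The D-type cyclins take up growth signals, and each had its own pattern. Ccnd1, the D-type cyclin best known from crypt and tumour cells of the gut, was 16.8, 21.1 and 86.0 CPM in control libraries 1 to 3. It was 64.6, 66.5 and 99.5 CPM in model, 57.9, 48.0 and 59.1 CPM in the Rhy libraries, and 22.1, 53.7 and 31.6 CPM in the DXM libraries. All model libraries lay above all Rhy and all DXM libraries, while the control group ran from below every other library to above all but model 3. The mean was 76.9 ± 19.7 CPM in the model group (SD, n = 3) and 41.3 ± 38.7 CPM in the control group (SD, n = 3).

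Ccnd2 was 32.0, 58.3 and 88.5 CPM in the control libraries and 104, 102 and 108 CPM in the model group. It was 81.5, 176 and 334 CPM in the Rhy libraries and 89.9, 188 and 288 CPM in the DXM libraries. The model libraries were close together and above every control library. Both treated groups were wide, and in each of them replicate 1 lay below the model libraries and the other 2 libraries above. Ccnd3, which is common in blood and immune cells, stayed between 54.0 and 87.9 CPM, with group means of 62.5, 71.0, 66.2 and 69.3 CPM in control, model, Rhy and DXM, and only the model libraries lay wholly above the control libraries.

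The E-type cyclins are produced late in G1, and Ccne1 was 7.86, 5.08 and 7.14 CPM in the control libraries. It was 11.8, 15.7 and 12.0 CPM in model, 7.53, 15.2 and 13.1 CPM in the Rhy libraries, and 4.32, 11.1 and 9.01 CPM in the DXM libraries. The model libraries lay above all control and all DXM libraries, and the Rhy group overlapped every other group. Ccne2 was low everywhere, from 2.13 CPM in DXM 1 to 8.13 CPM in model 2. Its groups overlapped in every comparison, although the order of the group means was the same as for Ccne1, from model through Rhy and DXM to control.

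CDK4 is the main kinase partner of the D-type cyclins, and Cdk4 was 40.0, 57.8 and 80.6 CPM in the control libraries. It was 102, 102 and 127 CPM in model, 92.5, 125 and 113 CPM in the Rhy libraries, and 73.8, 111 and 111 CPM in the DXM libraries. All model and all Rhy libraries were above all control libraries, and the 3 groups given DSS overlapped one another. Cdk6, the second partner of the D-type cyclins, was 11.5, 17.2 and 45.7 CPM in the control libraries and 24.3, 26.3 and 31.9 CPM in the model group. It was 35.5, 23.0 and 22.4 CPM in the Rhy libraries and 18.0, 22.5 and 22.5 CPM in the DXM libraries. In control, model and Rhy, the highest Cdk6 library of the group was the Hoxb13-poor one. Cdk2, the partner of the E-type cyclins, was 9.73, 15.0 and 23.0 CPM in the control libraries and 37.0, 34.1 and 21.8 CPM in the model group. It was 12.7, 22.9 and 25.0 CPM in the Rhy libraries and 14.8, 25.6 and 25.7 CPM in the DXM libraries. Model 1 and model 2 were the highest of all 12 libraries, and model 3 lay within the range of every other group.

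Both inhibitors had their highest group mean in control and their lowest in DXM, with model and Rhy between. Cdkn1b was 54.6, 85.5 and 88.2 CPM in the control libraries, 75.4, 76.0 and 64.3 CPM in model, 81.8, 37.6 and 48.0 CPM in the Rhy libraries, and 44.7, 44.2 and 35.9 CPM in the DXM libraries. The DXM libraries all lay below the control and the model libraries, and the Rhy group overlapped the other 3 groups. Cdkn1c, an imprinted gene, was 23.8, 32.1 and 12.8 CPM in the control libraries, 11.7, 12.6 and 23.3 CPM in model, 26.4, 10.4 and 5.26 CPM in the Rhy libraries, and 11.7, 9.74 and 3.80 CPM in the DXM libraries. It was below 15 CPM in 8 of 12 libraries, and the highest Rhy library was the Hoxb13-poor Rhy 1.

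The genes lie apart in the genome, and several share ends with a neighbour. In the mouse build GRCm38 (mm10), Cdk4 and Cdk2 are both on chromosome 10. Ccnd1, Ccne1 and Cdkn1c are on chromosome 7, and Ccnd2 and Cdkn1b on chromosome 6. The annotated spans of Ccnd1, Ccnd3, Ccne2, Cdk2 and Cdk4 overlap a protein-coding gene on the opposite strand (Oraov1, Bysl, Ints8, Pmel and Tspan31), and the sources used here do not say whether strand was used in counting, so reads of such pairs cannot be told apart where they overlap. The overlap of Cdk4 with Tspan31 was 641 bases, and Tspan31 had 274 to 687 reads per library. Ccne1 and Cdkn1b overlapped no other gene of the table.

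Promoters of Cdk4 and Cdk2 are shown because, of the members with a sequence, these carry more than 1 copy of the E-box or of the E2F core. They were chosen after the motif counts were seen. The sequences come from RefSeq (GRCm38.p6) and give the 250 bases before the annotated start, 5′ to 3′ on the strand of the gene, with the motif in capitals. Of the 10 members, 6 had an entry. In Cdk4 the capitals mark the E-box CACGTG, which reads the same on both strands and is the sequence bound by MYC and related factors. In Cdk2 they mark GCGGGAA, a core of E2F sites, searched on both strands.

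Cdk4, chr10:127063285-127063534, plus strand: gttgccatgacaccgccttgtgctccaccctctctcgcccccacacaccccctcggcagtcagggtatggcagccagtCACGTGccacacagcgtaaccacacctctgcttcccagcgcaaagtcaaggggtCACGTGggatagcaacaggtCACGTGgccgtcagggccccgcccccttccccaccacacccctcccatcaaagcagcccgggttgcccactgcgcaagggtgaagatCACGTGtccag
Cdk2, chr10:128705052-128705301, minus strand: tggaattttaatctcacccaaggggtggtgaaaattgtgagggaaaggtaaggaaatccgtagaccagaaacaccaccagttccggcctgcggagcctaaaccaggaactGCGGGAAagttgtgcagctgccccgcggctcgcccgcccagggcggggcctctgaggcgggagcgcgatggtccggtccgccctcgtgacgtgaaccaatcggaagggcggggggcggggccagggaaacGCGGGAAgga

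Cdk4 held 4 E-boxes, beginning 172, 118, 98 and 11 bases before the start. At least 1 E-box was present in 6.02% of the 32851 RefSeq promoter windows of this length. Cdk2 held 2 copies of GCGGGAA, beginning 140 and 10 bases before the start, against 3.82% of windows with at least 1. Cdk2 also held 5 GC boxes (GGGCGG, both strands) and Ccne1 held 4, and 32.7% of windows held at least 1. A match is a description of the letters and was not tested as a bound site.

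The comparison of model with control asks what DSS did to the colon. The model group had higher mean levels of the cyclins and kinases: 8 of 10 members were higher and 2 (Cdkn1b and Cdkn1c) lower, with a median log2 fold change of 0.70 over the members and 0.01 over all genes tested. After adjustment over all 16904 genes (threshold 0.05), the quasi-likelihood test of edgeR called none of the 10 and 0% of all genes, and neither DESeq2 nor limma called a member. DESeq2 with all libraries gave an adjusted p to 8459 of 29984 genes and called 46. Ccne1 and Ccne2 had no adjusted p there, so that fit could not call them. DESeq2 on these groups alone called 167 of 14565 genes. At an unadjusted p under 0.05, 3 members were higher (Cdk4, Ccne1 and Cdk2), against 5.11% of all genes. Cdk4 was 1.86-fold higher (log2 fold change 0.89 ± 0.26 SE, edgeR adjusted p = 0.459), Ccne1 1.96-fold (0.97 ± 0.36 SE, edgeR adjusted p = 0.479) and Cdk2 1.94-fold (0.96 ± 0.36 SE, edgeR adjusted p = 0.487). The model libraries lay wholly above the control libraries for 4 members (Ccnd2, Ccnd3, Ccne1 and Cdk4), against 10.4% of all genes. Model 1 and model 2 were nearly identical, so this separation and the model spread may rest on fewer than 3 independent libraries. Ccnd1 was 1.86-fold higher by the fit with a wide error (0.89 ± 0.53 SE).

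The 2 E-type cyclins together summed to 6.66 ± 1.13 FPKM in the model group and 3.82 ± 0.75 FPKM in the control group (SD, n = 3 each), and the groups did not overlap. An exact two-sided permutation test gave p = 0.1, the smallest that 3 against 3 libraries allow, as for every such test here. Adjusted over the 35 tests of sums, shares and ratios, it was 0.438. With the model group, these tests count the nearly identical model 1 and model 2 as separate libraries. The sum of the 10 proliferation markers, Mki67 and Top2a among them, was 475 to 600 CPM in model and 202 to 374 CPM in the control group. All 10 of these markers were higher in the model group, and their part in the result was not tested. Across the 12 libraries, which share group and tissue composition, Pearson's r of log2 CPM with that sum was 0.90 for Ccne1, 0.87 for Ccne2, 0.84 for Cdk2 and 0.73 for Cdk4, as a description.

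In control 3, the Hoxb13-poor control library, 8 of 10 members were higher than in both other control libraries. The share of all genes higher in control 3 was not counted, so this cannot be called particular to the members. Leaving out the 3 Hoxb13-poor libraries left the nearly identical model 1 and model 2 as the model group. In that fit 6 members passed at an unadjusted p under 0.05, against 15.6% of all genes: Ccnd1 (log2 fold change 1.75), Cdk2 (1.48), Ccne1 (1.05), Cdk4 (1.02) and Cdk6 (0.77) higher and Cdkn1c (-1.24) lower. The lowest edgeR adjusted p among them was 0.167. With the replicate number as a block, 5 members passed at an unadjusted p under 0.05, against 10.8% of all genes. Leaving out 1 library at a time gave 1 member without control 2 (6.30% of all genes) or without model 2 (5.19%) and up to 5 members without control 3 (16.2%). Without the 3 libraries over 20% mitochondrial reads, 3 members passed at an unadjusted p under 0.05, against 15.3% of all genes, and the log2 fold changes of Ccnd1 and Ccnd2 were 0.47 and 0.46. With model 1 and model 2 as 1 library, the calls over all genes at that threshold fell from 1626 of 16904 to 866 of 17346. In that fit Ccne1 was 0.94 (edgeR unadjusted p = 0.0449), Ccnd1 1.00 and Ccnd2 0.82.

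The comparison of Rhy with model asks what rhynchophylline changed in colitis. No member passed: edgeR called none of the 10 with adjustment and none at an unadjusted p under 0.05, against 0% and 3.72% of all genes, and DESeq2 and limma called none either. DESeq2 called 5 of 28908 genes with all libraries and 41 of 20921 with these groups alone. The Rhy group had the lower mean in 9 of 10 members, with a median log2 fold change of -0.16 over the members, although Cdk4 was marginally higher under other scalings. Ccnd1 was the only member whose Rhy libraries all lay below the model libraries, against 6.02% of all genes, with 0.715 times the model level (log2 fold change -0.48 ± 0.53 SE, edgeR adjusted p = 1.00). Cdk2 had 0.654 times the model level (-0.61 ± 0.36 SE) and Ccne2 had 0.744 times (-0.43 ± 0.44 SE). Cdk4 had a log2 fold change of -0.01 ± 0.26 SE, and its sign changed with the scaling. Ccnd2 was the 1 member with a higher mean in the Rhy group, 1.89-fold (0.92 ± 0.52 SE), and its log2 fold change was 0.30 without Rhy 3.

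Rhy 1 stood apart from the other Rhy libraries in 9 of the 10 members, below both in 6 and above both in 3 (Cdk6, Cdkn1b and Cdkn1c). The share of all genes that did so was not counted. Over all genes tested, the pairwise dispersion of Rhy 1 was 0.197 with Rhy 2 and 0.241 with Rhy 3. Between Rhy 2 and Rhy 3 it was 0.0837, so the distance of Rhy 1 is not particular to the members. Rhy 1 is both Hoxb13-poor and rich in mitochondrial reads. Without Rhy 1, 2 members passed at an unadjusted p under 0.05 (Ccnd2 and Cdkn1b), against 6.13% of all genes. Without the 3 Hoxb13-poor libraries these were Ccnd2 (log2 fold change 1.34) and Cdkn1b (-0.79), against 8.42% of all genes, and the lowest edgeR adjusted p of the members was 0.549. Without the 3 libraries over 20% mitochondrial reads they were again Ccnd2 (1.32) and Cdkn1b (-0.71), against 10.4% of all genes, and none passed after adjustment. The proliferation markers summed to 256 CPM in Rhy 1 and to 498 and 604 CPM in the other Rhy libraries. The epithelial markers summed to 18074 to 21830 CPM in Rhy and 14707 to 17695 CPM in model, and the 8 smooth muscle markers to 5609 to 6474 CPM in Rhy and 3636 to 4725 CPM in model, without overlap. The B cell markers did not overlap either, at 1.11 to 115 CPM in Rhy and 123 to 158 CPM in model. The part of these markers in the values of the members was not tested.

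The comparison of DXM with model asks the same of the glucocorticoid. The DXM group had the lower mean in 9 of 10 members, with Ccnd2 the exception and Ccnd3 marginally higher under upper-quartile scaling. The median log2 fold change was -0.49 over the members and -0.01 over all genes. With adjustment, edgeR called none of the 10 and 0% of all genes. At an unadjusted p under 0.05, 1 member was lower, against 2.80% of all genes. That was Cdkn1b, with 0.578 times the model level (log2 fold change -0.79 ± 0.28 SE, edgeR adjusted p = 0.622). With DESeq2 fitted to DXM and model alone, Cdkn1b had an adjusted p of 0.00802 and 3.52% of all genes were called. DESeq2 with all libraries and limma called no member. A simulation of model against control changed 200 genes 4-fold, with spreads taken from the edgeR fit. In it DESeq2 with all libraries made 37 false calls beside 150 true ones, against 4 beside 117 for edgeR. Neither DXM against model nor DESeq2 on the compared groups alone was simulated, so the call of Cdkn1b cannot be judged from it. The DXM libraries lay wholly below the model libraries for 5 members (Ccnd1, Ccne1, Cdk6, Cdkn1b and Cdkn1c), against 12.2% of all genes.

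Ccnd1 in the DXM group had 0.466 times the model level (-1.10 ± 0.53 SE, edgeR adjusted p = 0.657), the largest difference among the members. Cdkn1c had 0.528 times (-0.92 ± 0.58 SE) and Ccne1 0.621 times (-0.69 ± 0.36 SE). Ccnd2 was 1.81-fold higher (0.85 ± 0.52 SE), with DXM 1 below the model libraries and the other 2 DXM libraries well above. The fibroblast markers (7 genes) summed to 866 to 1806 CPM in DXM and to 471 to 548 CPM in model, and smooth muscle markers (8 genes) to 5053 to 9135 and 3636 to 4725 CPM. Endothelial markers (6 genes) summed to 59.1 to 136 CPM in DXM and 46.8 to 57.7 CPM in model. The neutrophil markers (6 genes, mostly Ly6g) summed to 198 to 282 CPM in DXM and 30.6 to 118 CPM in model. The part of these markers in the result was not tested. Across the 12 libraries, r with the fibroblast sum was -0.80 for Cdkn1b and -0.79 for Cdkn1c. Without the 3 Hoxb13-poor libraries, 3 members passed at an unadjusted p under 0.05 (Ccnd1, Cdk2 and Cdkn1b), against 9.11% of all genes. Without DXM 3 no member did, against 3.11% of all genes, and Ccnd2 had a log2 fold change of 0.41. Without the 3 libraries over 20% mitochondrial reads, Ccnd2 (1.23) and Cdkn1b (-0.80) passed at an unadjusted p under 0.05, against 16.2% of all genes, none passed after adjustment in edgeR, and Ccne1 was -0.34 and Ccnd1 -0.80. With model 1 and model 2 as 1 library, the calls over all genes at that threshold fell from 1300 of 16904 to 736 of 17346. In that fit Ccnd1 was -1.20, Ccne1 -0.65 and Ccnd2 0.84.

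**Figure D2:**
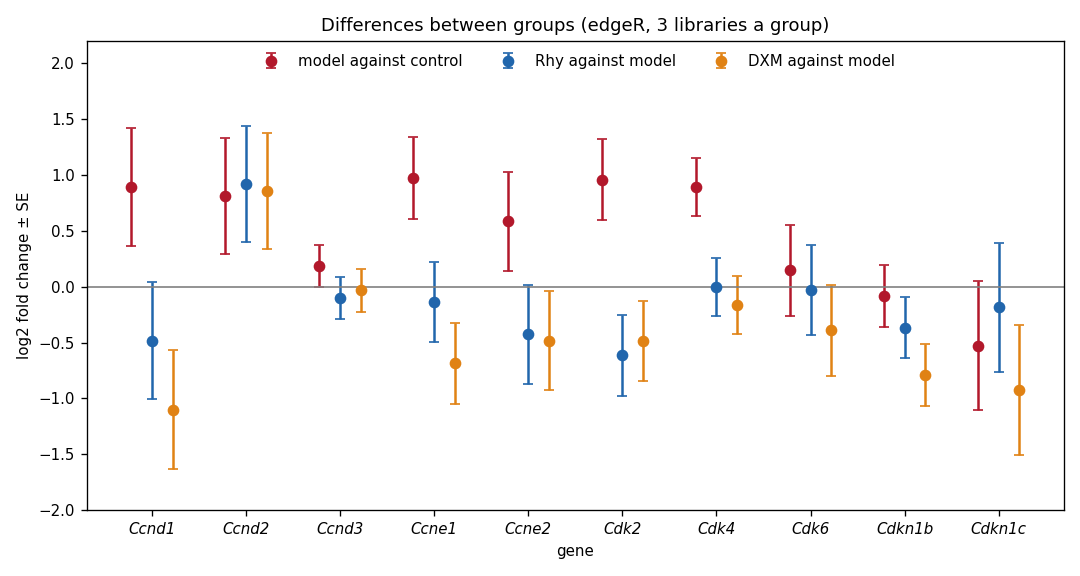
Log2 fold change (vertical axis) with its standard error for each of the 10 genes in 3 comparisons, from edgeR with 3 libraries a group. Cdk4, Ccne1 and Cdk2 sit near 0.9 in model against control, Ccnd2 is the only gene above 0 in both treatment comparisons in this fit (Cdk4 in Rhy and Ccnd3 in DXM cross 0 under other scalings), and no value passes an adjusted p under 0.05.

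The treated groups against control, which share the control libraries with the comparison above, placed Ccnd2 and Cdk4 highest. In Rhy against control, 8 members were higher, and edgeR called none with adjustment (0% of all genes), nor did DESeq2 or limma. Of all genes, DESeq2 called 33 of 14829 with all libraries and 2 of 26940 with these groups alone. At an unadjusted p under 0.05, 3 were higher, against 6.46% of all genes. Ccnd2 was 3.30-fold higher (log2 fold change 1.72 ± 0.53 SE, edgeR adjusted p = 0.364), Cdk4 1.85-fold (0.89 ± 0.26 SE) and Ccne1 1.79-fold (0.84 ± 0.36 SE). Cdk4 was the only member with every Rhy library above every control library, against 7.50% of all genes. In DXM against control none passed in edgeR after adjustment (0% of all genes), 2 members were higher at an unadjusted p under 0.05 (8.68% of all genes) and 2 lower (10.2%). Ccnd2 was 3.16-fold higher (1.66 ± 0.53 SE, edgeR adjusted p = 0.149) and Cdk4 1.66-fold (0.73 ± 0.26 SE). Cdkn1b had 0.546 times the control level (-0.87 ± 0.28 SE, edgeR adjusted p = 0.150) and Cdkn1c 0.366 times (-1.45 ± 0.59 SE). The DXM libraries lay wholly above control for Ccnd2 (9.77% of all genes) and wholly below for Cdkn1b and Cdkn1c (8.89%).

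These contrasts with control changed with the libraries used. Control 1, Rhy 1 and DXM 1, the libraries over 20% mitochondrial reads, were each the lowest of their group for 4 members (Ccnd2, Ccne2, Cdk2 and Cdk4). How many of all genes had this order was not counted. Without these 3 libraries, edgeR called 3 members in Rhy against control, with 4.54% of all genes called. They were Ccnd2 (log2 fold change 1.78, edgeR adjusted p = 0.0332) and Ccne1 (1.19, edgeR adjusted p = 0.0453), which rose, and Cdkn1b (-1.04, edgeR adjusted p = 0.0299), which fell. In DXM against control the same fit called 2 members, with 12.3% of all genes called: Ccnd2 rose (1.69, edgeR adjusted p = 0.0182) and Cdkn1b fell (-1.12, edgeR adjusted p = 0.0109). DESeq2 on all libraries called the same 2 in DXM against control (adjusted p = 0.0354 and 0.0465, with 7.09% of all genes called), and DESeq2 on these 2 groups alone called Ccnd2 (adjusted p = 0.0462, with 2.45%). In the simulation of model against control with all libraries, DESeq2 made 37 false calls beside 150 true ones, and edgeR 4 beside 117. DXM against control was not simulated, so these DESeq2 calls cannot be judged from it. Without the 3 Hoxb13-poor libraries, 8 members passed at an unadjusted p under 0.05 in Rhy against control (21.5% of all genes) and 7 in DXM against control (23.6%), none after adjustment in edgeR. Without Rhy 3 the log2 fold change of Ccnd2 in Rhy against control was 1.11, and without DXM 3 that in DXM against control was 1.22.

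The make-up of the D-type cyclins was compared as shares of their summed FPKM. Ccnd1 made up 41.6%, 42.7% and 52.2% of the sum in the model libraries and 23.0%, 29.3% and 14.2% in the DXM libraries. Ccnd2 made up 33.5%, 32.6% and 28.3% in the model libraries and 46.8%, 51.4% and 64.7% in the DXM libraries. The groups did not overlap for either share. The mean difference of DXM from model was -23.3 percentage points for Ccnd1 and 22.8 points for Ccnd2, each with p = 0.1 in the exact permutation test and 0.438 after adjustment over the 35 tests of sums, shares and ratios. The summed D-cyclin level itself was 34.7 ± 13.3 FPKM in DXM and 34.5 ± 4.41 FPKM in model (SD, n = 3 each). In the Rhy libraries Ccnd2 made up 31.5%, 49.9% and 63.9%, so Rhy 1 lay with the model group and the other 2 with the DXM group. In the control libraries Ccnd3 held 50.4%, 38.2% and 21.7%.

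**Figure D3:**
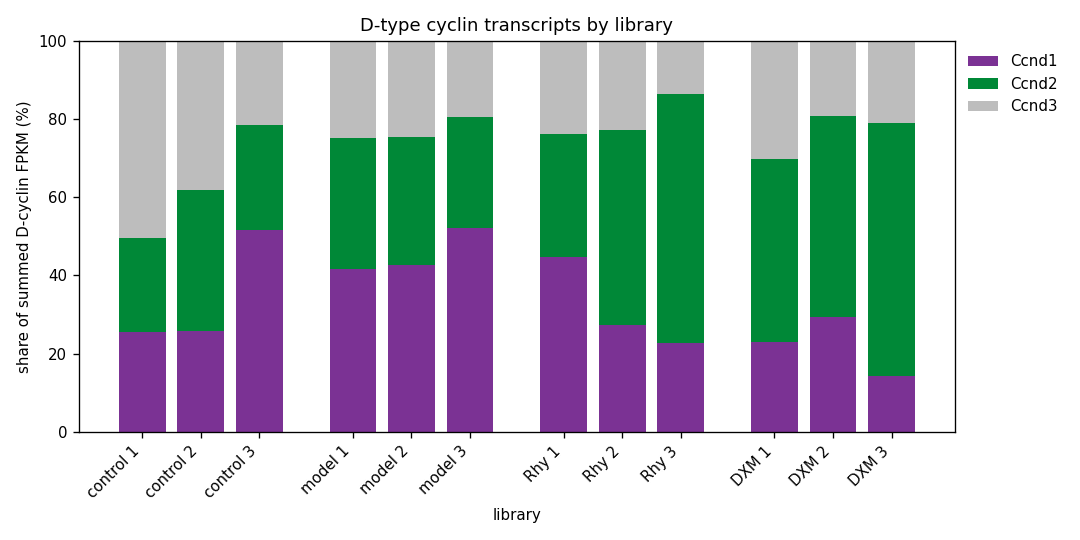
Share of summed D-type cyclin FPKM (vertical axis, percent) held by Ccnd1, Ccnd2 and Ccnd3 in each of the 12 libraries. Ccnd2 holds 46.8% to 64.7% in the DXM libraries and 28.3% to 33.5% in the model libraries.

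The balance of D-type cyclins against the inhibitor p27 was followed as a ratio of FPKM. It was 1.17, 0.920 and 1.82 in the control libraries and 1.99, 1.98 and 2.87 in the model libraries, which lay above them. It was 1.53, 4.54 and 5.26 in the Rhy libraries and 2.08, 4.01 and 6.00 in the DXM libraries, which also lay wholly above control. The exact permutation test gave p = 0.1 for model and for DXM against control and 0.2 for Rhy against control. After adjustment over the 35 tests of sums, shares and ratios, each was 0.438.

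Some members moved together, and partner pairs ran from high to low. Over the 12 libraries r of log2 CPM was 0.86 between Ccne2 and its kinase Cdk2, 0.86 between Ccnd1 and Cdk6, and 0.81 between Ccnd2 and Cdk4. Of the other partner pairs, Ccnd1 with Cdk4 had 0.74, Ccne1 with Cdk2 0.67 and Ccnd3 with Cdk4 0.55. Cdk6 had 0.27 with Ccnd2 and 0.19 with Ccnd3. Pairs that are not partners also reached such values, as Cdk2 with Cdk4 (0.73) and Ccnd1 with Ccne2 (0.70). The 2 inhibitors had r of 0.66 with each other. Cdkn1c ran opposite to Ccnd2, at -0.85. The members also moved with the mitochondrial share of the library. Their r with it, on log2 CPM without a prior count, ran from -0.83 (Ccne2) to -0.40 (Cdk6) for the cyclins and kinases. It was -0.69 for Cdk2, 0.11 for Cdkn1b and 0.55 for Cdkn1c. These values are descriptions over libraries that share groups, depth range, mitochondrial share and tissue composition.

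**Figure D4:**
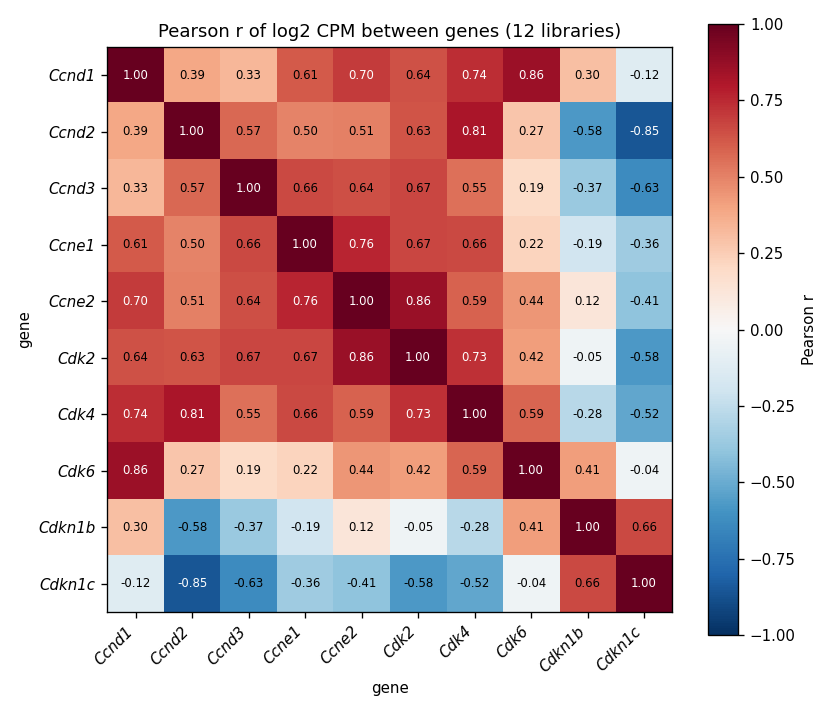
Pearson's r of log2 CPM between each pair of the 10 genes over the 12 libraries, on a colour scale from -1 to 1 with the value in each cell. Ccne2 with Cdk2 and Ccnd1 with Cdk6 are highest at 0.86, and Ccnd2 with Cdkn1c lowest at -0.85.

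In both the control and the model group, Ccnd1, Ccnd2, Cdk4 and Cdk6 were highest in the Hoxb13-poor library, and in the Rhy group Cdk6, Cdkn1b and Cdkn1c were. How many of all genes had these orders was not counted. Cdk6 was 45.7 CPM in control 3 against at most 17.2 CPM in the other control libraries, and 35.5 CPM in Rhy 1 against at most 23.0 CPM in the other Rhy libraries. Its r with the distal colon position list (5 genes) was -0.63. It was stronger with the neutrophil (-0.80), macrophage (-0.76) and B cell (-0.65) lists, and control 3 and Rhy 1 were also poor in B cell markers. Ly6g made up most of the neutrophil sum (682 of 687 CPM in control 1). Cd14 was the largest part of the macrophage sum (399 of 614 CPM in control 1). The r with these lists thus leans on single genes and does not describe the cell types as a whole.

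The genes most like each member across 14577 protein-coding genes were named by the highest r over 12 libraries. Cdk2 was closest to E2f7 (0.97), an E2F family repressor, and Topbp1 (0.96), a DNA replication and repair factor. Ccne2 was closest to Top2a (0.95), the topoisomerase of dividing cells, and to Sept10 (0.94), whose name is stored as a date in the deposited table. Ccne1 was closest to Vrk1 (0.94) and Lsm2 (0.92), and Cdk4 to Cct3 (0.99), a chaperonin subunit, and Rcl1 (0.98). Ccnd1 was closest to Ide (0.97) and Med22 (0.96), Ccnd2 to Fam98a (0.97) and Xrcc5 (0.96), and Ccnd3 to Dpy19l3 (0.94) and Foxn2 (0.90). Cdk6 was closest to Zfp36l2 (0.98) and Svip (0.97), Cdkn1b to Kdm4a (0.97) and Tcf20 (0.96), and Cdkn1c to Surf1 (0.97) and Slc25a20 (0.97).

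The other genes of the G1/S step numbered 31, of which 29 were tested. In model against control 20 were higher and 9 lower, with 10 higher and 2 lower at an unadjusted p under 0.05 (5.11% and 4.51% of all genes) and none after adjustment in edgeR. The activator E2f1 was highest, 3.24-fold (log2 fold change 1.70 ± 0.42 SE), followed by the repressor E2f8, 3.02-fold (1.60 ± 0.53 SE). E2f1 was 2.995, 3.20 and 6.70 CPM in the control libraries and 14.7, 15.7 and 11.7 CPM in the model group, without overlap. The inhibitors Cdkn1a (p21; -0.79 ± 0.37 SE) and Cdkn2b (p15; -0.62 ± 0.39 SE) had the lowest values. Cdkn1a was 336, 358 and 236 CPM in control and 148, 161 and 228 CPM in model.

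In Rhy against model 11 of the 29 were higher and 18 lower, and 1 was higher at an unadjusted p under 0.05 (Cul1, a ubiquitin ligase scaffold), against 1.74% of all genes. Cdkn2b (0.35) and Cul1 (0.34) had the highest log2 fold changes, and the F-box cyclin Ccnf (-1.03) and E2f2 (-0.87) the lowest. In DXM against model 3 were higher and 26 lower, with 4 lower at an unadjusted p under 0.05 (2.80% of all genes) and a median log2 fold change of -0.31. Ccnf (-1.25) and E2f2 (-1.07) were again lowest, and Ccnh (0.32), part of the CDK-activating kinase, and Cul1 (0.19) highest. Both treatment comparisons share the model libraries.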

How the data were processed

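Bulk RNA-Seq of mouse colon was analysed in 12 libraries, 3 in each of 4 groups given by the treatment label. The deposited table held raw counts per gene, which the authors made from their alignments. Per the labels, the submitters' processing notes name HISAT2 2.0.5, featureCounts 1.5.0-p3, DESeq2 1.16.1 and mm10; whether strand was used is not given in the sources used here. The deposited FPKM values, as the authors made them, are scaled to gene length and library total, and served for levels between genes and for sums, shares and ratios. The labels do not say whether each library came from its own mouse. If not, p-values measure the spread between these libraries, which may be technical.

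Counts were tested with edgeR 4.0.16 in R 4.3.3 (TMM, filterByExpr with a minimum count of 10, quasi-likelihood F test, two-sided, all 12 libraries in 1 fit). P-values were adjusted by Benjamini-Hochberg over the 16904 genes tested, with a threshold of 0.05. Sums, shares and ratios were compared by exact permutation tests. Pearson's r used log2 CPM with a prior count of 2. Scripts were tested on simulated data. Gene coordinates of all 10 members were the same in GENCODE (GRCm38). Precision is limited by 3 libraries a group.

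The members, lists and tests were chosen with earlier results of these data known. Named were the 10 members, the 2 largest rises and 2 largest falls among the other G1/S genes in each of the 3 comparisons with or within the model group, and the 2 most alike protein-coding genes of each member. Other genes were named where a result turned on them.

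Same-numbered control and model libraries deviated from their group means together in each of 3 pairs (r 0.104 to 0.363). Control 1 did so as much with model 2 (0.207) as with model 1 (0.210). The value of 0.363 was between the Hoxb13-poor control 3 and model 3. These values cannot show whether the numbers are pairs, so the main fit had no block and a replicate block was an alternative. In the other comparisons at least 1 pair had a negative r, with r from -0.310 to 0.142.

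Alternatives were RLE and upper-quartile scaling, no filter on low counts, the compared groups alone, DESeq2 1.42.0, limma 3.58.1 on log2(FPKM + 1) and log2(FPKM + 0.1), a replicate block, model 1 and model 2 as 1 library, and each library left out. Leaving out the libraries with Hoxb13 under 5 CPM (control 3, model 3, Rhy 1) and those with over 20% mitochondrial reads (control 1, Rhy 1, DXM 1) was added after seeing the data.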

Additional observations from a re-analysis of the deposited data

How the results depend on the processing

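The count of members past an adjusted p under 0.05 was 0 in all 5 comparisons in edgeR and stayed at 0 in model against control and Rhy against model under every alternative. In model against control, DESeq2 with all libraries gave Ccne1 and Ccne2 no adjusted p, so it could not call them. DESeq2 called 2 members in DXM against control with all libraries and 1 with these groups alone, and 1 in DXM against model with these groups alone. Without the libraries over 20% mitochondrial reads, edgeR called 2 members in DXM against control and 3 in Rhy against control. Of 900 alternative log2 fold changes of the members, 55 had another sign than the reported one, none of them for a member at an unadjusted p under 0.05. In Rhy against model, Cdk4 was 0.022 under RLE scaling, 0.0044 under upper-quartile scaling, 0.022 by DESeq2 with all libraries, 0.014 with these groups alone, and 0.020 by limma with either pseudocount. Ccnd3 in DXM against model was 0.041 under upper-quartile scaling. With the replicate block, Cdk6 was 0.021 in Rhy against model, and the block moved no count of adjusted calls. Without the Hoxb13-poor libraries, Rhy against model gave 0.0041 for Ccnd3, 0.072 for Ccne1 and 0.25 for Cdk4, and model against control 0.071 for Cdkn1b. Without the libraries over 20% mitochondrial reads, Rhy against model gave 0.025 for Ccnd3, 0.14 for Ccne1 and 0.14 for Cdk4, DXM against model 0.16 for Ccnd3 and 0.057 for Cdk4, and model against control -0.25 for Cdk6. Leaving out 1 library at a time gave -0.24 to 0.12 for Ccnd3 and -0.26 to 0.010 for Cdk4 in DXM against model. In Rhy against model it gave -0.34 to 0.11 for Ccne1, -0.10 to 0.14 for Cdk4, -0.28 to 0.12 for Cdk6 and -1.02 to 0.23 for Cdkn1c. In model against control it gave -0.20 to 0.91 for Cdk6 and -0.27 to 0.011 for Cdkn1b. At an unadjusted p under 0.05 the count of members ran over all alternatives from 1 to 6 in model against control (reported 3), 0 to 2 in Rhy against model (0), 0 to 4 in DXM against model (1), 2 to 8 in Rhy against control (3) and 2 to 7 in DXM against control (4). The count over all genes moved with the same alternatives. It ran from 866 to 2811 genes in model against control and from 283 to 1794 in Rhy against model. It ran from 537 to 2783 in DXM against model, 999 to 4085 in Rhy against control and 1639 to 5105 in DXM against control. These fits tested 15713 to 29984 genes. The causes were not tested. Low counts limit Ccne2, at 2.13 to 8.13 CPM, the most.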
